A study of Bos taurus with 6 samples.

Results

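GTF3C2, a subunit of the RNA polymerase III transcription factor TFIIIC, was counted about 4 times as often in the longissimus thoracis (LT) muscle when the number of fine marbling particles (NFMP) was high as when it was low. The 10 genes described here are the 6 subunits of TFIIIC (GTF3C1 to GTF3C6), the other RNA polymerase III factors GTF3A, BRF1 and BDP1, and the inhibitor MAF1. They were listed by name to ask whether the difference of GTF3C2 was shared by its complex and by the factors that work with it. GTF3C2 was taken up because of its difference between these same groups, so its own values are a description without a test, while the other 9 genes were listed for their place in the machinery. All 10 were found once among the 23015 rows of the count files, and all 10 passed the filter on low counts that left 15039 rows for testing.

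The libraries came from 6 Hanwoo (Korean native cattle) steers kept and fed conventionally, 1 library per steer. The high-NFMP group held steers 3-8, 10-8 and 10-9, aged 32.5, 33.8 and 34.5 months, and the low-NFMP group held steers 3-1, 3-3 and 10-16, aged 37.8, 33.7 and 35.4 months. Fine marbling particles are small flecks of fat in the cut muscle that were counted on photographs. The steers were picked from a larger set for that number, so the groups are not a treatment. The groups also differ in age and, as the paper reports for the sequenced steers, in marbling score and rib eye area. Reads counted on genes numbered 16283873 to 17192750 per library. The libraries held the RNA of whole muscle, in which 9 muscle fibre markers summed to CPM values (counts scaled to the library size after TMM correction) between 93900 and 116000. In whole tissue, fewer cells of a type and less RNA per cell cannot be told apart.

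RNA polymerase III makes short noncoding RNAs, among them the transfer RNAs, the 5S ribosomal RNA, the U6 small nuclear RNA and the 7SL RNA. At a transfer RNA gene, TFIIIC binds sequence elements that lie inside the gene and then places TFIIIB (made of TBP, BRF1 and BDP1) upstream of the start, and TFIIIB brings in the polymerase. At the 5S genes, GTF3A binds first and TFIIIC joins it. MAF1 shuts the polymerase off when nutrients are short and is itself held in check by the kinase mTOR, and mice without Maf1 are lean.

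In GTF3C2, 888, 725 and 833 reads were counted in steers 3-8, 10-8 and 10-9 of the high-NFMP group, against 230, 187 and 214 in the low-NFMP steers 3-1, 3-3 and 10-16. Scaled to a common library size (normalized counts), these were 899.9, 805.7 and 835.4 against 220.1, 173.0 and 216.0. The 3 steers of a group lay close together and the groups were far apart. The group means were 847 ± 48.2 and 203 ± 26.1 normalized counts (SD, n = 3), which is 2.06 ± 0.19 (SE) on the log2 scale or 4.17-fold, with a 95% interval from 3.13-fold to 5.55-fold. Within a group, the highest steer was at most 1.27 times the lowest, whereas over all 6 steers it was 5.20 times the lowest. Split by the first number of the steer label, the fold was 4.58 among the steers numbered 3 (1 high, 2 low) and 3.80 among those numbered 10 (2 high, 1 low). The log2 fold change stayed between 1.95 and 2.14 with each steer left out in turn.

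**Figure D1:**
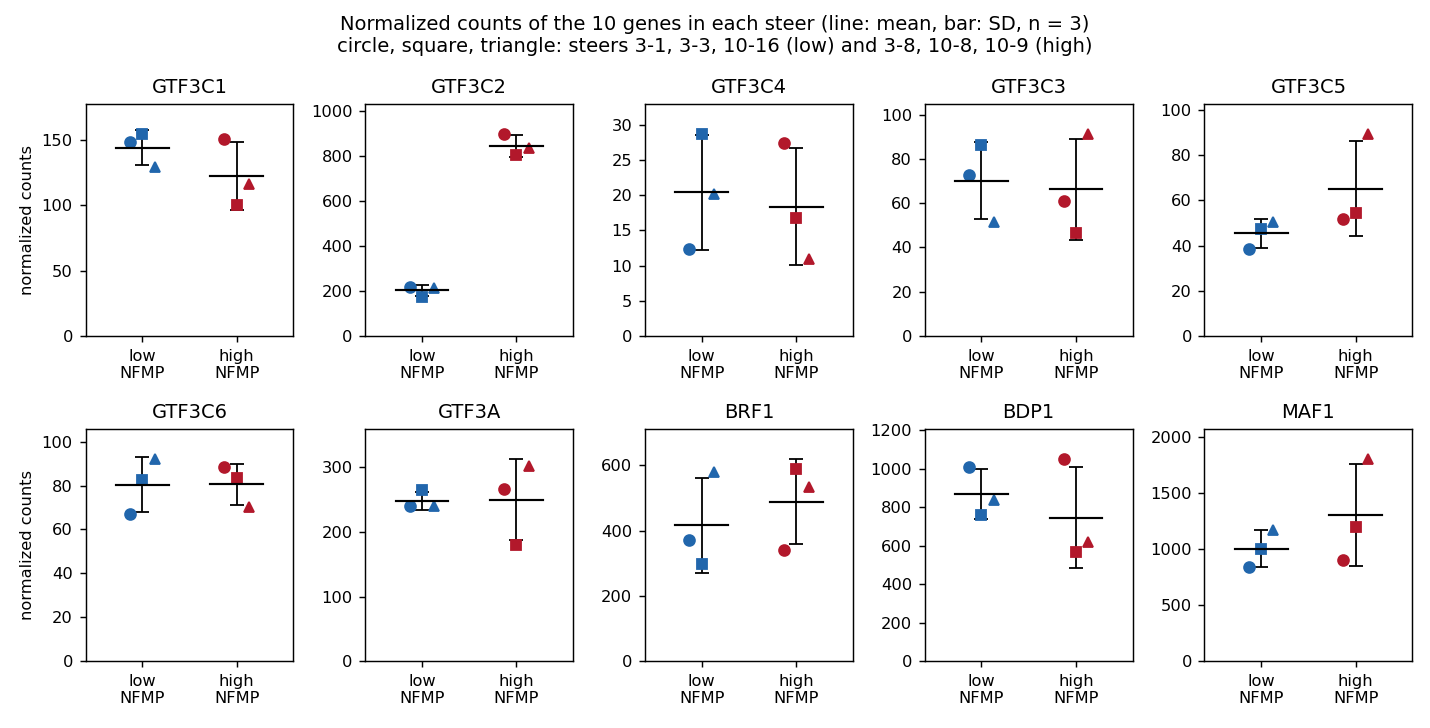
Normalized counts (vertical axes, starting at 0, a scale per gene) of the 10 genes in the low-NFMP (blue) and high-NFMP (red) steers, with 1 point per steer, a line at the mean and a bar for the SD (n = 3). GTF3C2 separates the groups widely, between 173.0 and 220.1 in the low-NFMP and between 805.7 and 899.9 in the high-NFMP steers, while in the other genes the points overlap or, for GTF3C5, nearly meet.

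Markers of fat cells were also more abundant in part of the high-NFMP libraries. The 7 adipocyte markers (ADIPOQ, PLIN1, PLIN4, CIDEC, FABP4, LEP and LPL) summed to between 302 and 708 CPM in the high-NFMP steers and between 287 and 366 in the low-NFMP steers, and no marker was at 0 in all libraries. Scaled to the library totals alone, an alternative chosen after the data were seen, the sums were 721, 372 and 302 against 327, 395 and 278, so that steer 3-8 alone lay above all low-NFMP steers. In edgeR, 3 of the 7 (ADIPOQ, PLIN4 and CIDEC) were higher at an unadjusted p under 0.05, which is 42.9% of the list beside 5.73% of all tested genes, and the smallest adjusted p of the 7 was 0.214. In steer 10-9 the sum was 302, below 2 of the low-NFMP steers, while its GTF3C2 count was 835.4 after normalization. ADIPOQ and CIDEC were higher in every high-NFMP steer than in every low-NFMP steer, with 1016.0 and 523.5 normalized counts in steer 10-9. This held for 2 of the 7 markers (28.6%), beside 7.97% of all tested genes. The fibroblast, endothelial, immune, red blood cell and Schwann cell lists overlapped between the groups in their summed levels. The part of any of these cell types in the GTF3C2 difference was not tested.

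The other 9 genes did not pass the test. At an unadjusted p under 0.05 there were 0 of them in the quasi-likelihood test of edgeR, in DESeq2 and in limma after quantile normalization. In edgeR 11.5% of all tested genes had such a p, and with 9 genes 0 cannot be told apart from that share. None was past the threshold of the methods, which asks for a fold change above 2 and an unadjusted p under 0.05 and which 3.90% of all tested genes reached, or past an adjusted p below 0.05, which 0.685% reached. Their log2 fold changes ran from -0.23 to 0.52 with a median of 0.00, beside a median of 0.02 over all tested genes. A p that misses the threshold does not show that a gene was the same in both groups, so the intervals matter more here. The highest upper limit of the 9 was a log2 fold change of 1.26, in GTF3C5. Over the alternatives fitted with edgeR it lay between 1.19 with the label number as a term and 1.54 without steer 10-16, both in GTF3C5. Without steer 10-9 (1.31) and without steer 3-3 (1.47) it was that of GTF3C4. The 2.06 of GTF3C2 stands beside these limits as a description only, since a value chosen for its size tends to be too large.

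**Figure D2:**
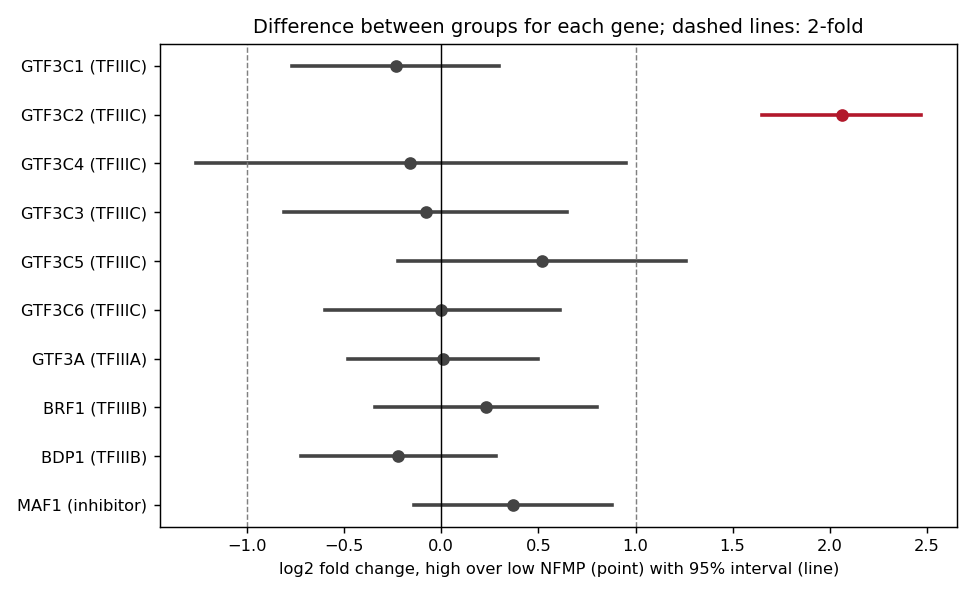
Log2 fold change of high over low NFMP (horizontal axis) for each of the 10 genes, with its 95% interval from edgeR; dashed lines mark a 2-fold difference. GTF3C2, chosen for its difference, is at 2.06 (1.65 to 2.47), and the intervals of the other 9 all include 0, that of GTF3C5 reaching farthest to the right (-0.22 to 1.26).

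GTF3C1 and GTF3C4 belong to the same lobe of TFIIIC as GTF3C2, the one that grips the downstream promoter element of a transfer RNA gene. GTF3C1 is the largest subunit and makes that contact. Its reads numbered 149, 90 and 116 in steers 3-8, 10-8 and 10-9 and 155, 167 and 128 in steers 3-1, 3-3 and 10-16. Steer 3-8 lay among the low-NFMP steers and the other two high-NFMP steers lay below them. High over low NFMP gave a log2 fold change of -0.23 ± 0.25 (SE, edgeR adjusted p = 0.758), with an interval from -0.77 to 0.30.

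GTF3C4, for which an acetyltransferase activity has been described, was the rarest of the 10 genes in reads, at 27, 15 and 11 in the high-NFMP and 13, 31 and 20 in the low-NFMP steers. A count of 11 has an exact Poisson 95% interval from 5.49 to 19.7 and a count of 31 one from 21.1 to 44.0, which covers counting error only. The groups overlapped fully. Its log2 fold change of -0.16 ± 0.52 (SE, edgeR adjusted p = 0.932) had the widest interval of the 10, from -1.26 to 0.95, which holds a 2-fold lower level and stops just short of a 2-fold higher one.

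GTF3C3, GTF3C5 and GTF3C6 form the other lobe, which sits on the upstream promoter element, and GTF3C3 is the subunit that reaches TFIIIB. GTF3C3 had 60.8, 46.7 and 91.3 normalized counts in the high-NFMP and 72.7, 86.1 and 51.5 in the low-NFMP steers, with the highest and the lowest value of all 6 in the same group. The difference on the log2 scale was -0.08 ± 0.34 (SE, edgeR adjusted p = 0.948), with an interval from -0.81 to 0.65.

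GTF3C5, which contacts DNA and pairs with GTF3C6, had 51.7, 54.5 and 89.3 normalized counts in the high-NFMP and 38.3, 47.2 and 50.5 in the low-NFMP steers. It was the only gene of the 9 in which every high-NFMP steer lay above every low-NFMP steer, the nearest pair being 51.7 and 50.5. Groups that do not overlap were found in 17.1% of all tested genes in either direction and in 7.97% in this one. The log2 fold change of GTF3C5 was 0.52 ± 0.35 (SE, edgeR adjusted p = 0.602) with all 6 steers and 0.24 without steer 10-9. GTF3C6, the smallest subunit, had 88.2, 83.3 and 70.2 against 67.0, 82.4 and 91.9 normalized counts. Its group means of 80.6 ± 9.30 and 80.4 ± 12.6 (SD, n = 3) were almost the same, with an interval of the log2 fold change from -0.60 to 0.61.

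Summed over the 5 TFIIIC subunits other than GTF3C2, the normalized counts were 379.0, 301.2 and 378.1 in the high-NFMP and 338.7, 398.8 and 343.3 in the low-NFMP steers. The means of 353 ± 44.7 and 360 ± 33.5 (SD, n = 3) differed by less than the spread between steers. GTF3C2 therefore made up 70.4%, 72.8% and 68.8% of all reads on the 6 subunits in the high-NFMP group and 39.4%, 30.3% and 38.6% in the low-NFMP group. These shares compare steers with each other, and they do not measure the proportions of the proteins.

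**Figure D3:**
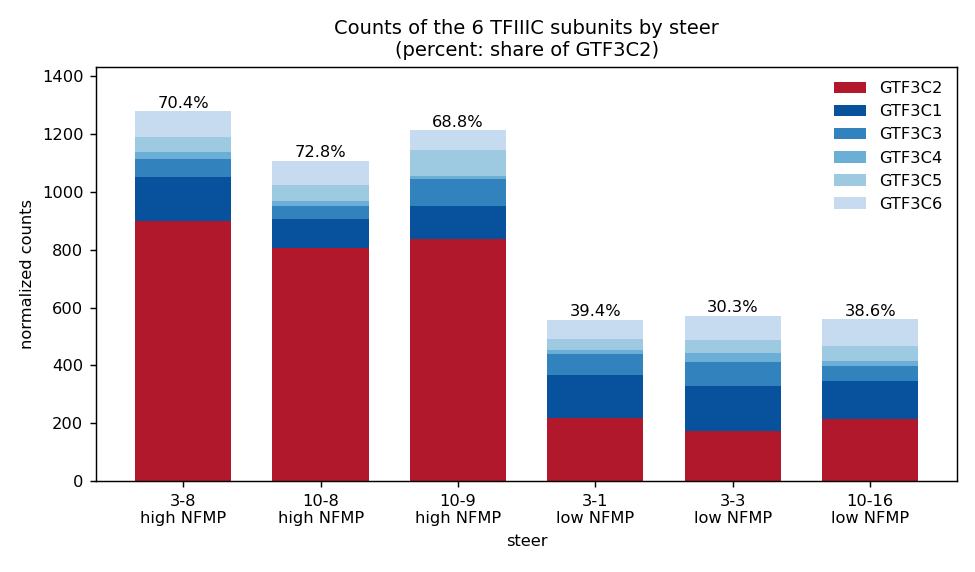
Stacked normalized counts of the 6 TFIIIC subunits (vertical axis) in each of the 6 steers, with the share of GTF3C2 printed above each bar. The GTF3C2 section (red) is 68.8% to 72.8% of the bar in the high-NFMP steers and 30.3% to 39.4% in the low-NFMP steers, and the 5 blue sections together are of similar height in all steers.

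GTF3A, the zinc finger protein TFIIIA that starts transcription of the 5S genes, had 265.5, 180.0 and 301.9 normalized counts in the high-NFMP and 239.2, 263.7 and 239.3 in the low-NFMP steers. The high-NFMP steers 10-8 and 10-9 were the lowest and the highest of all 6. Between the groups it had a log2 fold change of 0.01 ± 0.23 (SE, edgeR adjusted p = 0.992), with an interval from -0.48 to 0.50. GTF3A overlaps MTIF3, a mitochondrial translation initiation factor gene, on the cattle genome assembly ARS-UCD2.0 as annotated by RefSeq, and MTIF3 had a log2 fold change of -0.02.

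BRF1, the TFIIIB subunit related to the polymerase II factor TFIIB, had 342.5, 590.1 and 533.5 normalized counts in the high-NFMP and 371.3, 298.9 and 578.5 in the low-NFMP steers. High-NFMP steers held both the highest value and one close to the lowest, and the log2 fold change was 0.23 ± 0.27 (SE, edgeR adjusted p = 0.776). The gene BTBD6 overlaps BRF1 in ARS-UCD2.0 and its values of 280.7, 522.3 and 412.2 against 286.1, 249.8 and 482.6 put the 6 steers in the same order. A double counting of reads was not tested, and the values of BRF1 are uncertain for that reason.

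BDP1, the TFIIIB subunit that completes the complex on DNA, had 1049.9, 570.1 and 621.8 normalized counts in the high-NFMP and 1011.4, 760.6 and 836.9 in the low-NFMP steers. Steer 3-8 was the highest of all 6, and the other two high-NFMP steers were the lowest of all 6. With all steers the log2 fold change was -0.22 ± 0.23 (SE, edgeR adjusted p = 0.757), and it became -0.55 without steer 3-8, at an unadjusted p of 0.0162.

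MAF1, the inhibitor, had 904.9, 1199.1 and 1797.2 normalized counts in the high-NFMP and 835.4, 1003.1 and 1171.1 in the low-NFMP steers. Steer 10-9 stood above the other 5, and steer 3-8 lay within the low-NFMP range. Group means of 1300.4 ± 455 and 1003 ± 168 (SD, n = 3) gave a log2 fold change of 0.37 ± 0.24 (SE, edgeR adjusted p = 0.579), with an interval from -0.14 to 0.88. It was 0.58 without steer 3-8 (unadjusted p = 0.0240 by edgeR) and 0.09 without steer 10-9.

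Among the 9 genes other than GTF3C2, steer 10-9 had the highest value in 4 (GTF3A, GTF3C3, GTF3C5 and MAF1), and steer 10-8 had the lowest in 4 (GTF3A, GTF3C1, GTF3C3 and BDP1), both of these steers being in the high-NFMP group. Over the 6 steers, the highest value was between 1.37 times (GTF3C6) and 2.60 times (GTF3C4) the lowest.

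The rest of the RNA polymerase III pathway was read from 5 lists with 76 genes, of which 69 were in the counts and 66 were tested. Past the p and fold change threshold of edgeR were 0 genes higher in high NFMP, where the share over all genes was 2.53%, and 1 gene in the other, where it was 1.36%. The median log2 fold change of the 66 was -0.04. At an adjusted p below 0.05 there were 0 genes by edgeR and by limma after quantile normalization, and 1 gene each by DESeq2, by edgeR without the filter and by edgeR with age as a term. An unadjusted p below 0.05 was reached by 7 of 66, which is 10.6% beside 11.5% of all tested genes. That count rested on single libraries, being 1 without steer 3-1 and 11 without steer 3-8. The groups did not overlap in 12 of 66, of which 11 were lower and 1 higher in the high-NFMP group, beside 9.16% and 7.97% of all tested genes.

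The 18 subunits of RNA polymerase III had log2 fold changes from -0.61 to 0.49 with a median of 0.07, and none passed the p and fold change threshold. The 9 genes of TBP, BRF2 and the factors of U6-type promoters (SNAPC1 to SNAPC5, POU2F1 and ZNF143) lay between -0.43 and 0.23. TBP, the third part of TFIIIB, had 50.4 ± 12.1 normalized counts in the high-NFMP and 62.2 ± 9.95 in the low-NFMP group (SD, n = 3). BRF2, which stands in for BRF1 at the U6 gene, had 122 ± 30.6 and 114 ± 13.4. Of 22 genes for processing or binding the transcripts, 20 were tested, and they lay between -0.93 and 0.49.

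Among 18 regulators, PPP4C was the gene past the threshold. It encodes the catalytic subunit of protein phosphatase 4, whose yeast counterpart dephosphorylates Maf1. PPP4C had 59.8, 56.7 and 22.1 normalized counts in the high-NFMP and 120.6, 267.4 and 98.9 in the low-NFMP steers, so the groups did not overlap, and steer 3-3 stood far above the other two low-NFMP steers. On the log2 scale the difference was -1.82 ± 0.44 (SE, edgeR adjusted p = 0.111). It lay between -2.05 and -1.25 with each steer left out, and was -2.41 with age as a term (edgeR adjusted p = 0.0444).

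The 7 pathway genes at an unadjusted p below 0.05 were all lower in the high-NFMP group, where 5.74% of all tested genes had such a p, and 0 were higher, where 5.73% did. With steer 3-1 left out, 1 pathway gene had such a p, so the list depends on that library. Beside PPP4C the 7 included RPTOR, RPS6KB1, HEXIM1, SSB and POLR2K, which were named after their values were seen. RPTOR is the subunit that defines mTOR complex 1 and RPS6KB1 the kinase it activates, and their log2 fold changes were -0.52 and -0.60. The other listed parts of that complex went both ways without passing the test, MTOR at -0.21, AKT1S1 at 0.07 and MLST8 at 0.54. SSB is the La protein, which binds the tail of new RNA polymerase III transcripts, and it had 2704 ± 635 against 3819.5 ± 257. HEXIM1 acts with the 7SK RNA and POLR2K is a subunit shared by all 3 nuclear RNA polymerases, and both lay below the low-NFMP steers in every high-NFMP steer. The adjusted p of the 7 genes lay between 0.111 and 0.354 by edgeR.

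For comparison, 14 general factors of RNA polymerase II had a median log2 fold change of -0.14. An unadjusted p below 0.05 was reached by 3 of the 14 (21.4%), GTF2H3, GTF2H1 and GTF2F2, all lower in the high-NFMP group, beside 11.5% of all tested genes in either direction and 5.74% in that one. GTF2H3, a subunit of TFIIH, was also past the p and fold change threshold, as 1.36% of all tested genes were in that direction, at 18.2, 18.9 and 8.0 normalized counts in the high-NFMP and 36.4, 38.9 and 29.3 in the low-NFMP steers (adjusted p = 0.324 by edgeR).

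**Figure D4:**
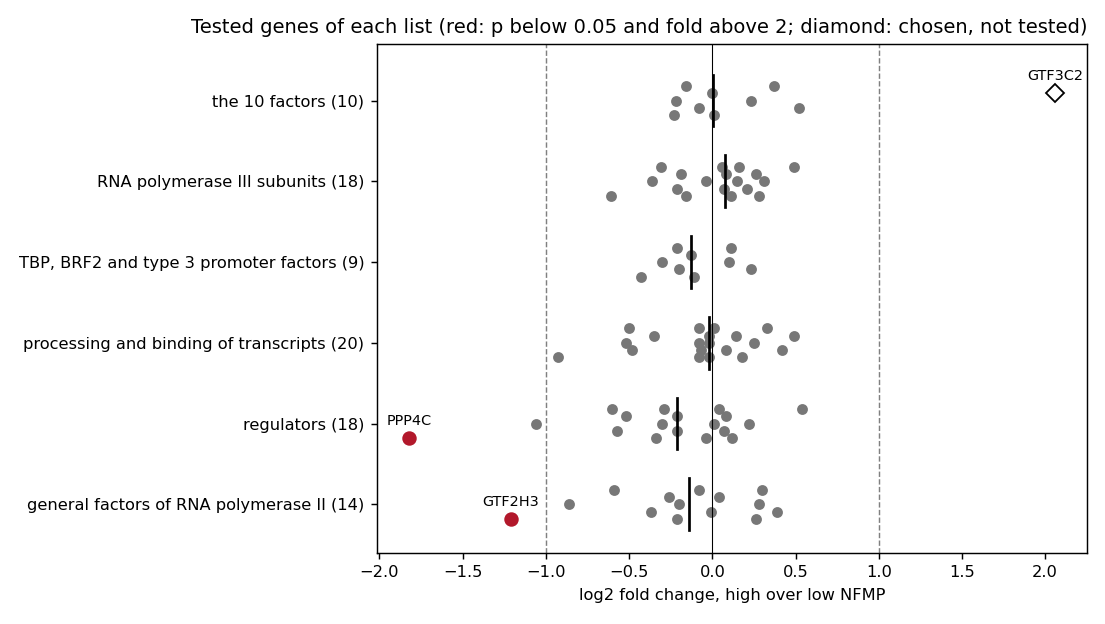
Log2 fold change of high over low NFMP (horizontal axis) of each tested gene in the 10 factors, 4 lists of the RNA polymerase III pathway and the general factors of RNA polymerase II, with the number of genes in brackets, a bar at the median and dashed lines at a 2-fold difference. Red points, PPP4C at -1.82 and GTF2H3 at -1.21, had a fold change above 2 at an unadjusted p under 0.05; the open diamond is GTF3C2 at 2.06, which was chosen for its difference and not tested.

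Products of RNA polymerase III have no regular poly(A) tail and were rare in these oligo-dT libraries. The 7SL gene RN7SL1 was counted at 78, 73 and 50 reads in the high-NFMP and at 101, 64 and 64 in the low-NFMP steers, a log2 fold change of -0.07 with an interval from -0.77 to 0.63. RMRP was counted at most 3 times. The 157 rows with a transfer RNA symbol together held between 170 and 240 reads per high-NFMP library and between 151 and 177 per low-NFMP library, and 4 of these rows were tested. Of these 4, a TRNAG-CCC row was higher past the p and fold change threshold, which 2.53% of all tested genes were, at 74.9 ± 8.28 against 23.7 ± 14.6 normalized counts (SD, n = 3, adjusted p = 0.145 by edgeR). That row held 77, 59 and 81 reads in the high-NFMP and 37, 8 and 28 in the low-NFMP libraries. These reads are part of the sums of the 157 rows, so the sums and the row are not separate results. The symbol is shared by several rows, so the gene copy behind this one is uncertain. The 155 snRNA genes of 107 bases, the commonest snRNA length in the RefSeq table and that of U6, summed to between 652 and 912 reads in the high-NFMP and between 808 and 1096 in the low-NFMP libraries. Of the 14 that were tested, 0 were higher and 1 was lower past that threshold, beside 2.53% and 1.36% of all tested genes, with log2 fold changes from -1.48 to 0.85. The transfer RNA and snRNA sums were added after the counts were seen.

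None of the 6 genes beside GTF3C2 on the chromosome passed the p and fold change threshold, which 3.90% of all tested genes reached. No gene overlaps GTF3C2 in ARS-UCD2.0. The 3 nearest genes on one side were EIF2B4, a translation initiation factor subunit, SNX17 and ZNF513, with log2 fold changes of 0.38, 0.32 and 0.17, and on the other side MPV17, UCN and TRIM54, with 0.22, -0.12 and 0.22. Their adjusted p lay between 0.570 and 0.939 by edgeR. EIF2B4, the nearest on its side, had 256.4, 262.3 and 396.2 normalized counts in the high-NFMP and 229.7, 194.3 and 278.6 in the low-NFMP steers, so the groups overlapped.

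The genes whose pattern over the 6 libraries lay nearest to GTF3C2 were none of the other 9. Likeness was measured as the root mean square difference of log2 CPM, each gene centred on its own mean, which describes these libraries and carries no test. The nearest 5 of 15038 were LOC112442110 (0.14), LOC112442857 (0.16), LOC112446509 (0.21), SIRT4 (0.21) and LOC112444936 (0.23). All but SIRT4, a mitochondrial sirtuin, are snRNA genes in ARS-UCD2.0, a kind that made up 65 of the 15039 tested rows, and nothing is read from this count, since the genes were picked for their likeness. With 0.5 added to the CPM in place of a prior of 2 counts, 3 of the 5 were again among the nearest 5, while LOC112446509 moved to place 14 and LOC112442857 to place 70. LOC112442110 had 183, 119 and 169 reads in the high-NFMP and 45, 41 and 39 in the low-NFMP steers, and LOC112442857 had at most 21 in a library. Members of the 10 ranked far lower, from GTF3C5 at place 1551 (0.86) to GTF3C4 at place 11602 (1.22). Reads of near-identical snRNA copies can be shared in this counting, and no snRNA gene overlaps any of the 10 genes in the table.

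**Figure D5:**
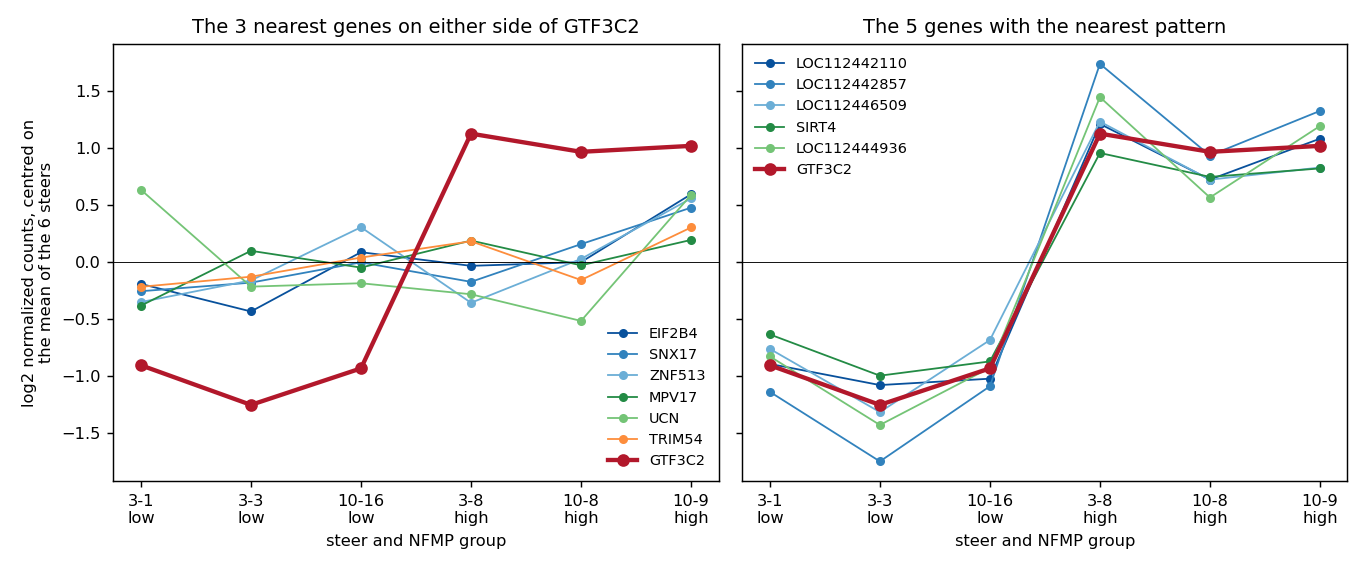
Log2 normalized counts centred on the mean of the 6 steers (vertical axis) for GTF3C2 (thick red line) and, on the left, its 3 nearest genes on either side and, on the right, the 5 genes of nearest pattern, by steer and NFMP group; lines only join the points of a gene. In each of the 6 neighbours the groups overlap; the 5 genes on the right were chosen for their likeness to GTF3C2, so their rise in the 3 high-NFMP steers follows from the choice.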

How the data were processed

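The authors made 3′ mRNA libraries from total RNA of LT muscle, and the deposited values are raw counts of reads for each gene symbol. In such libraries reads start near the poly(A) tail, so counts were not divided by gene length and levels of different genes were not ranked. The methods and the submitters' processing notes name more than one aligner, among them Bowtie2, and leave it unclear which made the counts and whether strand was used. Totals of 16283873 to 17192750 reads per library set the counting error, and since the reads carry no molecular identifiers, intervals on counts cover that error alone.

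The counts were fitted with edgeR 4.0.16 (R 4.3.3). Rows passing the edgeR default filter (minimum count 10, minimum total 15) were scaled by TMM, and the 3 high-NFMP and 3 low-NFMP steers were compared with the robust quasi-likelihood test, adjusted by Benjamini-Hochberg over 15039 rows. A normalized count is the count scaled to the average effective library size. Standard errors and 95% intervals were derived from the fold change and the F statistic. As alternatives, the filter was dropped or raised to 10 counts in each library, RLE factors or library totals replaced TMM, DESeq2 1.42.0 or limma 3.58.1 (quantile-normalized log2(count + 1)) replaced edgeR, the label number or age was added to the model, and steers were left out singly. The procedure was tested on simulated counts. P-values measure the spread between single libraries of steers.

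The genes named by rule were all 10 members, pathway genes past a threshold, genes overlapping a member, the nearest 3 on either side of GTF3C2 and the nearest 5 in pattern. Other genes named (among them TBP, BRF2, RN7SL1, RMRP and the RNA polymerase II factors) were added after their values were seen. The members and lists were chosen with earlier results of these data known. One pathway gene is not reported here by name.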

Additional observations from a re-analysis of the deposited data

How the results depend on the processing

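The log2 fold change of GTF3C2 was between 1.95 and 2.17 under all 14 alternatives, and 0 of the other 9 genes passed the p and fold change threshold or an adjusted p below 0.05 in any of them. At an unadjusted p, BDP1 and MAF1 passed 0.05 without steer 3-8. The median of the 9 lay between -0.07 and 0.11. Small fold changes turned sign. GTF3A (0.01) was -0.01 without a filter and with quantile normalization, -0.05 with library totals and -0.02 with age as a term, and between -0.14 and 0.23 with a steer left out. With the label number as a term GTF3C3 was 0.01 and BRF1 -0.01. With a steer left out GTF3C3 lay between -0.37 and 0.15 and GTF3C4 (-0.16) between -0.57 and 0.17, and GTF3C4 was -0.86 with age as a term. With age as a term 3 pathway genes passed in place of 1, MLST8 (1.03) and MYC (-2.34) beside PPP4C (-2.41).

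Of all genes, 586 passed the p and fold change threshold, 969 without a filter and 364 with at least 10 counts in every library. At an adjusted p below 0.05 there were 103, 240 without a filter, 291 by DESeq2 and 31 with age as a term, and with a steer left out between 28 and 82 (33 without 3-8, 41 without 10-8, 28 without 3-3, 63 without 10-16). No paired analysis was possible because the steer labels of the groups share no replicate number; their first number, whose meaning is not given, was tried as a term. With 3 steers a group, an exact permutation test cannot give a p below 0.1. At 11 to 31 reads per library, GTF3C4 is the gene limited most by depth among the 10.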

Other observations

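The levels of BRF1 and its overlapping gene BTBD6, which may share reads, were read by the first number of the steer label after their counts were seen, so the values are a description. BRF1 had 342.5, 371.3 and 298.9 normalized counts in the steers numbered 3 and 590.1, 533.5 and 578.5 in those numbered 10, without overlap. In the fit with both terms, the steers numbered 10 were higher by a log2 fold change of 0.75 (95% interval 0.33 to 1.17) for BRF1 and 0.79 (0.36 to 1.23) for BTBD6, with adjusted p of 0.620 and 0.611 by edgeR, so neither passed the correction. The same term was 0.54 for MAF1, -0.45 for BDP1 and 0.00 for GTF3C2. An unadjusted p below 0.05 for this term was found in 6.64% of all tested genes. The labels do not say what the number stands for.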
